A study of Mus musculus with 60 samples.

Results

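Coagulation and fibrinolysis factors were followed in primary mouse hepatocytes, the liver cells that make most of the clotting proteins of blood plasma. The set was a named list of 32 genes, chosen by function but with earlier results of these data known. Of these, 30 had a probe set of their own name among the 18194 genes on the array, and each was read from its probe set with the highest mean. Kng2, another kininogen gene, and Cpb2, a carboxypeptidase that slows clot breakdown, had none and gave no value. All 30 measured members exceeded the intensity filter on all 60 arrays, so none was left out of the tests.

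The hepatocytes came from male C57BL/6N mice of 8 to 12 weeks, from 1 animal or a pool of animals per experiment. They attached to collagen for 4 h and were kept without serum, with dexamethasone, for 24 h before time 0. Cells then received 40 ng/ml recombinant mouse hepatocyte growth factor (HGF), 40 ng/ml recombinant human interleukin 6 (IL-6), both, or nothing. Unstimulated cells were measured at 0 h on 4 arrays, and each of the 4 conditions at 7 later times from 0.5 to 32 h on 2 arrays. Nothing in the labels ties the 2 arrays of a pair to separate animals, so the spread behind each p-value may be technical. Values are log2 intensities, in which a difference of 1 is a 2-fold change. An adjusted p belongs to the F-test over all 7 later hours unless it is marked as that of 1 hour. Those of a next probe set or of a changed setting are of 1 hour. The number of arrays limits the precision: over members and groups the median standard deviation of a pair of arrays was 0.0493, and its 95th percentile was 0.21.

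Clotting starts when tissue factor meets factor VII and runs through factors X and II to thrombin, which turns fibrinogen into fibrin. Several of these enzymes, and the anticoagulant proteins C, S and Z, work only after a vitamin K-dependent carboxylation in the liver. Serpins such as antithrombin trap the enzymes, thrombomodulin and the protein C receptor turn thrombin towards protein C, and plasmin dissolves the clot under the control of antiplasmin. In the acute phase response, IL-6 acts on hepatocytes through STAT3 and raises fibrinogen and other plasma proteins, while HGF acts through the receptor Met and drives hepatocyte growth.

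The promoters of 5 members are shown because these genes moved in different ways: Pros1, Serpinf2 and Serpind1 were higher with IL-6, F9 was not called with IL-6 and lower with HGF, and F13b was lower with each. Each window holds the 250 bases before the RefSeq transcript start on build GRCm38.p6, written 5′ to 3′ on the gene's strand. They lie at chr16:62854057-62854306 (Pros1, plus strand), chrX:59999214-59999463 (F9, plus strand), chr11:75439502-75439751 (Serpinf2, minus strand), chr16:17331121-17331370 (Serpind1, plus strand) and chr1:139501457-139501706 (F13b, plus strand). Capitals mark matches, on either strand, to a STAT site (TTCNNNGAA), a C/EBP site (TTGCNNAA), an HNF4 site (CAAAGNNCA) or an HNF1 core (GTTAAT).
Pros1: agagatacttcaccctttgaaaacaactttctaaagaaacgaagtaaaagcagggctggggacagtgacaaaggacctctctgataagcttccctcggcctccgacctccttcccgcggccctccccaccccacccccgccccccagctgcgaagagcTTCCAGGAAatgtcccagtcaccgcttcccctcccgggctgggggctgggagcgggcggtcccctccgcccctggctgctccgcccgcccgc
Serpinf2: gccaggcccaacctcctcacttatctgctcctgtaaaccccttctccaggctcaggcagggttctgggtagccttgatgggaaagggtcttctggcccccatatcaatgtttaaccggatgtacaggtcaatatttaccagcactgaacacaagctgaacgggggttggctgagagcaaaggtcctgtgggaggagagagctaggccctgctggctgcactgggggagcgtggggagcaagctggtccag
Serpind1: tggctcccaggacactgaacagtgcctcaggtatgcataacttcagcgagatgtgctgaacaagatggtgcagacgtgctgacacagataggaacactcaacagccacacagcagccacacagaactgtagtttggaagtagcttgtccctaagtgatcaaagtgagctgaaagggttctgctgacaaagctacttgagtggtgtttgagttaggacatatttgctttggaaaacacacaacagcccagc
F9: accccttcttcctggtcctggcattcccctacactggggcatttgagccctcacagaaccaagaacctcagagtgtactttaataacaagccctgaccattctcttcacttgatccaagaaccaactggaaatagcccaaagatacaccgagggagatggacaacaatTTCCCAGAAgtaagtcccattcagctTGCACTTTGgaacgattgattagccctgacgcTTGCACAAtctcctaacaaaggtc
F13b: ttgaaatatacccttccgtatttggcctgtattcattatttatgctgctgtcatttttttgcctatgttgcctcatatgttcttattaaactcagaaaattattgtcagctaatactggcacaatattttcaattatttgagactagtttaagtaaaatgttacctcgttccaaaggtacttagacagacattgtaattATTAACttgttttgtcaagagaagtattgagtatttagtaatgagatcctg
In this window Pros1 held a STAT match that begins 92 bases before the start, and F9 held one at 82 bases before it, beside a C/EBP and an HNF4 match. F13b held an HNF1 core on the opposite strand, at 51 bases before the start, and the Serpinf2 and Serpind1 windows held none of these letters. RefSeq entries matched 26 of the 32 members, in 29 windows. The STAT letters were in 2 of the 26 genes and in 7.02% of 32851 mouse promoters, and the C/EBP letters in 8 genes and 9.56% of promoters. The HNF1 core was in 4 genes (F13b, Habp2, Proz and Tfpi2) and 6.43% of promoters, and the HNF4 letters in 3 genes (F7, F9 and Kng2) and 5.49%. No motif overlapped another in F9. A match is a description of these letters and not a binding site.

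Several properties of the arrays bear on all comparisons. The spiked labelling control dap had a 3′ minus 5′ signal of 1.22 to 1.48 on the 10 unstimulated arrays of 0 to 4 h, against 2.62 to 2.99 on the stimulated arrays of 0.5 to 4 h and 2.63 to 2.89 on unstimulated arrays of 8 to 32 h. Contrasts with unstimulated cells before 8 h therefore cross a labelling difference. So do contrasts of arrays of 8 to 32 h, unstimulated or stimulated, with the 0 h arrays. The hybridisation control bioB read 8.04 to 8.31 on unstimulated arrays of 8 to 32 h and 5.21 to 6.98 on stimulated arrays of those hours. It also differed between stimuli: at 8 to 32 h it was 5.78 to 6.79 with HGF, 5.42 to 6.98 with IL-6 and 5.21 to 5.63 with both, and at 0.5 h the HGF arrays read 8.23 and 8.30 and the IL-6 arrays 6.89 and 6.82. The part of these differences in the members' values was not tested, in contrasts with unstimulated cells or between stimuli. IL-6 24 h replicate 1 stood apart from its partner, with a dap value of 3.72 against 2.78. Socs3, a direct IL-6 target, was 5.42 higher with IL-6 at 0.5 h and 0.92 higher with HGF at 2 h. All 7 hepatocyte markers with a probe set passed the intensity filter, and albumin read 14.34 on average. All 10 endothelial markers passed it too, with mean levels from 3.96 to 7.15.

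Time in culture was read in unstimulated cells, as each later hour minus 0 h. Most clotting genes lost signal over the 32 h, most of all Hrg, Serpinf2 and Plg, while the protein C receptors gained it. By the F-test over 7 hours, 29 of 30 members differed from 0 h, 6 higher and 23 lower, against 75% of all 14513 genes tested (40.4% higher and 34.6% lower). At 32 h the median member was 1.04 lower and the median gene 0.05 lower. Of the 7 hepatocyte markers 6 fell as well and Apob rose, with a median of -1.28 at the largest hour, from Cps1 (-3.73) and Apoa1 (-2.53) to albumin (-0.19). The actin 3′ minus 5′ signal was 0.20 to 0.27 on unstimulated arrays of 0 to 4 h and 0.42 to 0.72 on those of 8 to 32 h. The dap signal differed between the same hours, so every contrast of 8 to 32 h with 0 h crosses the labelling difference. The part of the markers, of actin or of dap in the members' falls and rises was not tested. In bulk samples, fewer cells of a type and less RNA per cell cannot be told apart.

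Among the vitamin K-dependent factors 6 of 7 fell, from F10 (-2.27 at 32 h) and F7 (-2.06) to Proc, which encodes protein C (-0.63). Pros1, the gene of protein S, was the exception. Its 4 arrays at 0 h read 8.14 to 8.19, with a median of 8.15, and its arrays at 16 h read 8.87 and 8.81. Both 16 h arrays lay above the 0 h range. The difference was 0.68 at 16 h (SE 0.06, adjusted p = 2.97e-17), and at 32 h it was -0.03 (adjusted p = 0.686 for that hour). Of the carboxylation genes, the carboxylase Ggcx rose by 0.53 at 16 h and the epoxide reductase Vkorc1, the target of warfarin, fell by 0.30 at 32 h. Tissue factor (F3) was 0.76 higher at 0.5 h and 1.32 lower at 32 h, and its inhibitor homologue Tfpi2 fell by 1.03 at 32 h. Tfpi itself did not pass the test (-0.24 at 0.5 h, adjusted p = 0.197).

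The cofactor genes moved little: F5 fell by 0.54, F8 rose by 0.40, and Lman1 and Mcfd2, which carry factors V and VIII out of the endoplasmic reticulum, changed by -0.26 and 0.25. F8 read low, with a mean of 4.70 over all arrays, where array medians were 4.88 to 4.97. All 4 contact system genes measured fell, from F12 (-1.51) and F11 (-1.24) to Klkb1 (-0.63) and Kng1 (-0.20). F13b, the carrier subunit of the clot-crosslinking factor XIII, fell by 1.75.

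Thrombomodulin and the endothelial protein C receptor are proteins best known from vessel walls. Thbd, the gene of thrombomodulin, read 5.72 to 5.92 at 0 h (median 5.80) and 8.40 and 8.05 at 24 h. Every array from 16 h on lay above the 0 h arrays, and the difference at 24 h was 2.42 (5.34-fold, SE 0.13, adjusted p = 1.59e-24). Procr, the protein C receptor gene, read 6.70 to 6.91 at 0 h (median 6.83) and 8.01 and 7.96 at 32 h, without overlap, a rise of 1.16 (SE 0.10). Of the 10 endothelial markers 3 rose and 6 fell over the same hours, and Lyve1 fell by 2.18 at 24 h. Their summed linear intensity ranged from 517 to 845 over unstimulated arrays, all 10 passed the intensity filter, and none read 0. Their part in the 2 rises was not tested.

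The 3 serpin anticoagulants fell by similar amounts: Serpind1, heparin cofactor II, by 1.98, Serpina10, the protein Z-dependent inhibitor of factor Xa, by 1.95 and Serpinc1, antithrombin, by 1.89. All 4 genes of fibrinolysis and its control fell, and Hrg, Serpinf2 and Plg had the largest falls of all members. Hrg, a plasma glycoprotein that binds plasminogen and heparin, read 10.51 to 10.65 at 0 h (median 10.61) and 6.49 and 6.50 at 32 h. Serpinf2, the main plasmin inhibitor, read 11.26 to 11.44 (median 11.33) and then 7.75 and 7.68. Plg, plasminogen, read 11.31 to 11.44 (median 11.42) and then 9.0 and 8.94. None of the 32 h arrays came near the 0 h range. The differences were -4.10 (17.1-fold lower, SE 0.11, adjusted p = 8.19e-34), -3.62 (12.3-fold lower, SE 0.08, adjusted p = 2.47e-36) and -2.43 (5.39-fold lower, SE 0.07, adjusted p = 5.43e-32). From 0 to 32 h Hrg also changed by -4.30 with HGF, -4.34 with IL-6 and -4.40 with both, while Serpinf2 changed by -3.85 with HGF, -1.96 with IL-6 and -2.50 with both. The protease gene Habp2 fell by 1.02 at 32 h, and its step came between 4 and 8 h. Between these hours the dap signal of the unstimulated arrays changed too, and stimulated arrays of Habp2 changed by only -0.03 on average. The part of the labelling difference in this fall was not tested.

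**Figure D1:**
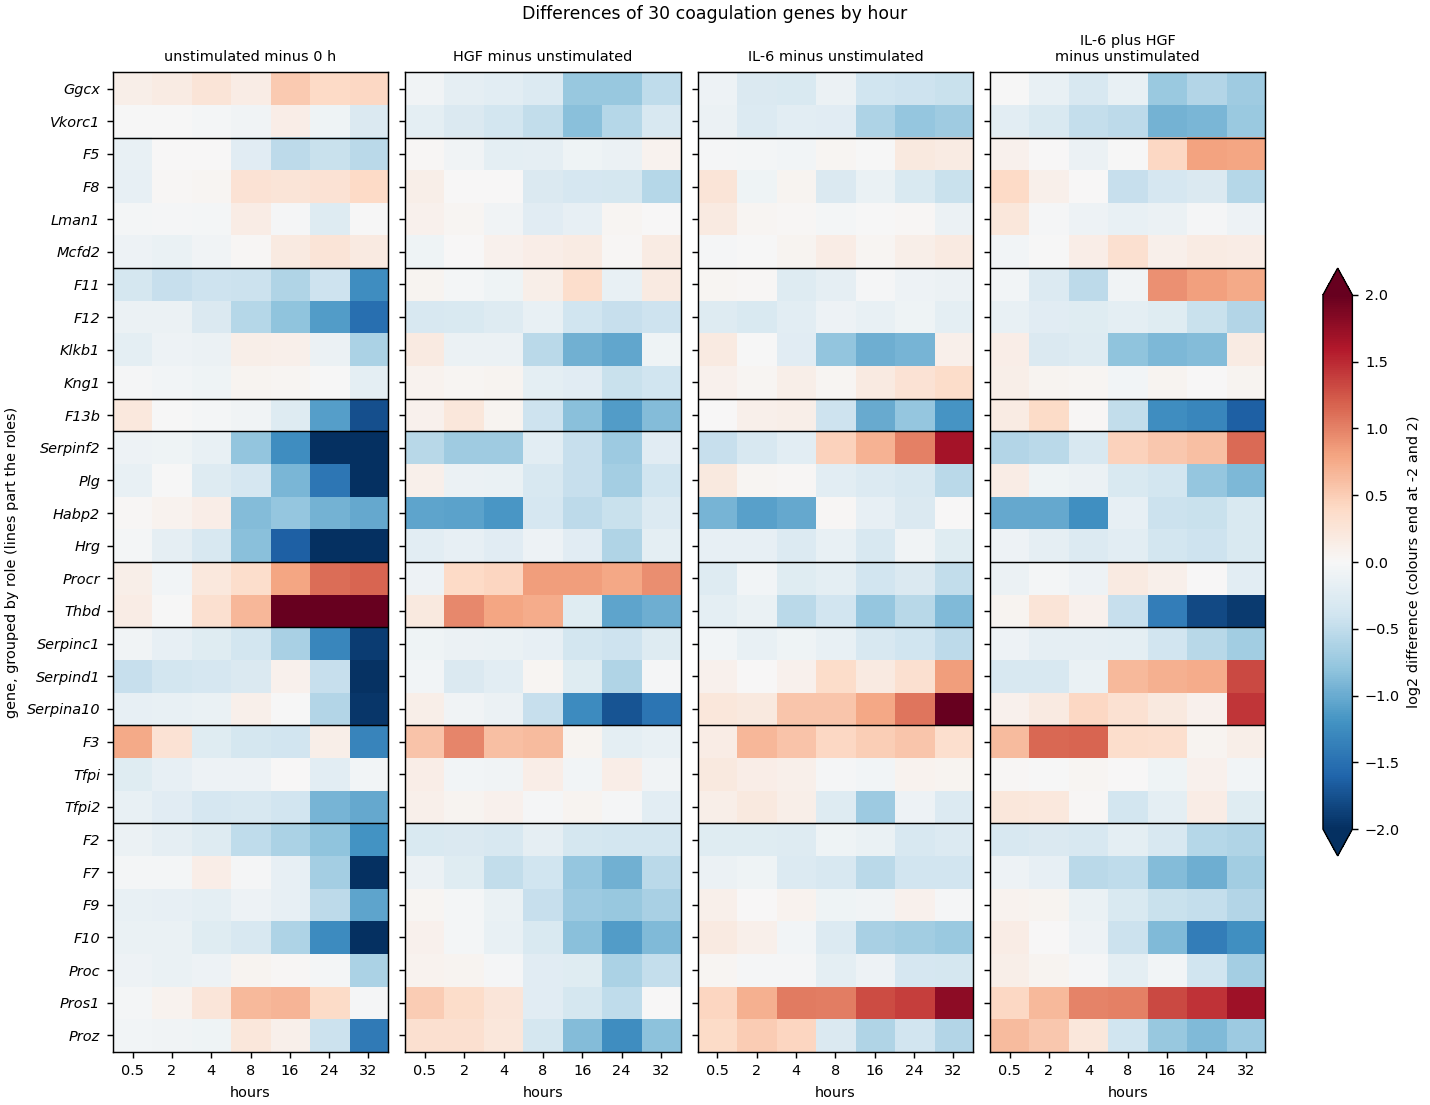
Log2 differences of the 30 measured members (rows, grouped by role, with horizontal lines between roles) at 7 hours (columns), for unstimulated cells against 0 h and for HGF, IL-6 and IL-6 plus HGF against unstimulated cells of the same hour; each cell is a difference between group means of 2 arrays, or of 2 against 4 in the first panel. Blue is lower and red is higher, and the colours end at -2 and 2, so that Hrg (-4.10) and Serpinf2 (-3.62) at 32 h lie beyond the scale.

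Most of the clotting genes were lower with HGF than in unstimulated cells of the same hour, and 17 of the 22 members that fell had their largest difference at 24 h. Habp2 had its own at 4 h, Lman1 at 8 h, Ggcx and Vkorc1 at 16 h and F8 at 32 h. Of 30 members 27 differed from unstimulated cells, 5 higher and 22 lower, where 62.6% of all genes tested differed, 29.8% higher and 32.8% lower. At 24 h alone 22 members were lower and 1 was higher, against 17.5% and 16.4% of all genes, and the median member stood at -0.54 and the median gene at 0.03. Over 8 to 32 h only, hours in which the unstimulated arrays shared the dap signal of the stimulated ones, 27 members were called, against 55.1% of genes. Of the 27 members called over all hours, 7 differed at least 2-fold, all lower, where 3.58% of genes were called and did. Of the 7 hepatocyte markers 4 were lower with HGF, 1 was higher and 2 were not called (median -0.40), and their part was not tested.

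Of the vitamin K-dependent factors 6 fell at 24 h: Proz, F10 (-1.12), F7 (-0.96), F9 (-0.75), Proc (-0.63) and F2, prothrombin (-0.37). Proz encodes protein Z, the cofactor with which Serpina10 blocks factor Xa. Its HGF arrays at 24 h read 6.36 and 6.34 and its unstimulated arrays 7.53 and 7.67. The groups did not overlap, and Proz was 1.24 lower (2.37-fold, SE 0.14, adjusted p = 1.33e-12). By its next probe set the difference was -0.57 (adjusted p = 0.0431 at that hour). Pros1 had its largest difference at 0.5 h, with 8.57 and 8.67 on HGF arrays and 8.18 and 8.04 on unstimulated arrays. The rise was 0.50 (SE 0.07, adjusted p = 9.01e-08 at that hour, and 1.34e-13 by the F-test over all hours). The other stimulated arrays of 0.5 h read much the same, 8.60 and 8.48 with IL-6 and 8.51 and 8.55 with both. This early contrast crosses the labelling difference, and the part of that difference was not tested. Later Pros1 was lower with HGF, by 0.22 at 8 h, 0.35 at 16 h and 0.50 at 24 h. The sign thus turned within the series, but between hours on either side of the labelling change. Both carboxylation genes fell at 16 h, Vkorc1 by 0.84 and Ggcx by 0.76.

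F3, which starts the cascade, read 11.10 and 11.11 with HGF at 2 h and 10.15 and 10.10 without. The HGF arrays were higher without overlap, and the difference was 0.98 (1.98-fold, SE 0.09, adjusted p = 6.27e-15). It stayed at 0.63 at 8 h, within 1 labelling class, and was 0.05 at 16 h. Tfpi (0.14, adjusted p = 0.69) and Tfpi2 (-0.20, adjusted p = 0.576) did not pass, and neither did F5 (-0.20, adjusted p = 0.11). F8 (-0.58), whose mean level was below every array median, and Lman1 (-0.23) fell, and Mcfd2 rose by 0.17. In the contact system Klkb1, prekallikrein, fell by 1.04, F12 by 0.47 and Kng1 by 0.45. F11 rose by 0.35 at 16 h (adjusted p = 0.0148). This call was lost without unstimulated 16 h replicate 2 or without HGF 16 h replicate 1. F13b fell by 1.12 at 24 h.

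The protein C receptors parted with HGF. Procr read 9.10 and 8.71 with HGF at 32 h and 8.01 and 7.96 without, and was 0.92 higher (1.90-fold, SE 0.11, adjusted p = 2.73e-15). It had been higher at each hour from 2 h on. Thbd was 0.96 higher at 2 h, with arrays of 6.79 and 6.74 against 5.92 and 5.68, and 1.05 lower at 24 h, with 7.26 and 7.09 against 8.40 and 8.05. Neither pair overlapped, so that the HGF arrays stood above the unstimulated arrays early and below them late. Of the 10 endothelial markers 9 were lower with HGF and 1 was not called, and their summed linear intensity ranged from 414 to 824 over HGF arrays. Procr was higher and Thbd at 24 h lower in the same comparison, and the markers' part in either was not tested.

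Among the serpins, Serpina10 had the largest fall of all members with HGF. At 24 h it read 9.71 and 10.01 with HGF and 11.51 and 11.67 without, a difference of -1.73 (3.32-fold, SE 0.06, adjusted p = 4.87e-30), and at 32 h it was still 1.46 lower. Serpind1 (-0.61) and Serpinc1 (-0.41) fell less. In the fibrinolysis group Serpinf2 (-0.73), Plg (-0.68) and Hrg (-0.60) were lowest at 24 h. Habp2, which can activate factor VII and pro-urokinase, was lowest at 4 h, with 6.43 and 6.27 against 7.70 and 7.33 on unstimulated arrays, a difference of -1.17 (SE 0.13, adjusted p = 2.73e-15). The next probe set gave -0.29 (adjusted p = 0.233), so the call at this hour rests on 1 probe set. Unstimulated Habp2 then dropped by 1.00 from 4 to 8 h while stimulated arrays changed by -0.03 on average. This step between labelling classes, -0.98, compares with a median size of 0.15 and a 95th percentile of 0.50 over all genes.

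**Figure D2:**
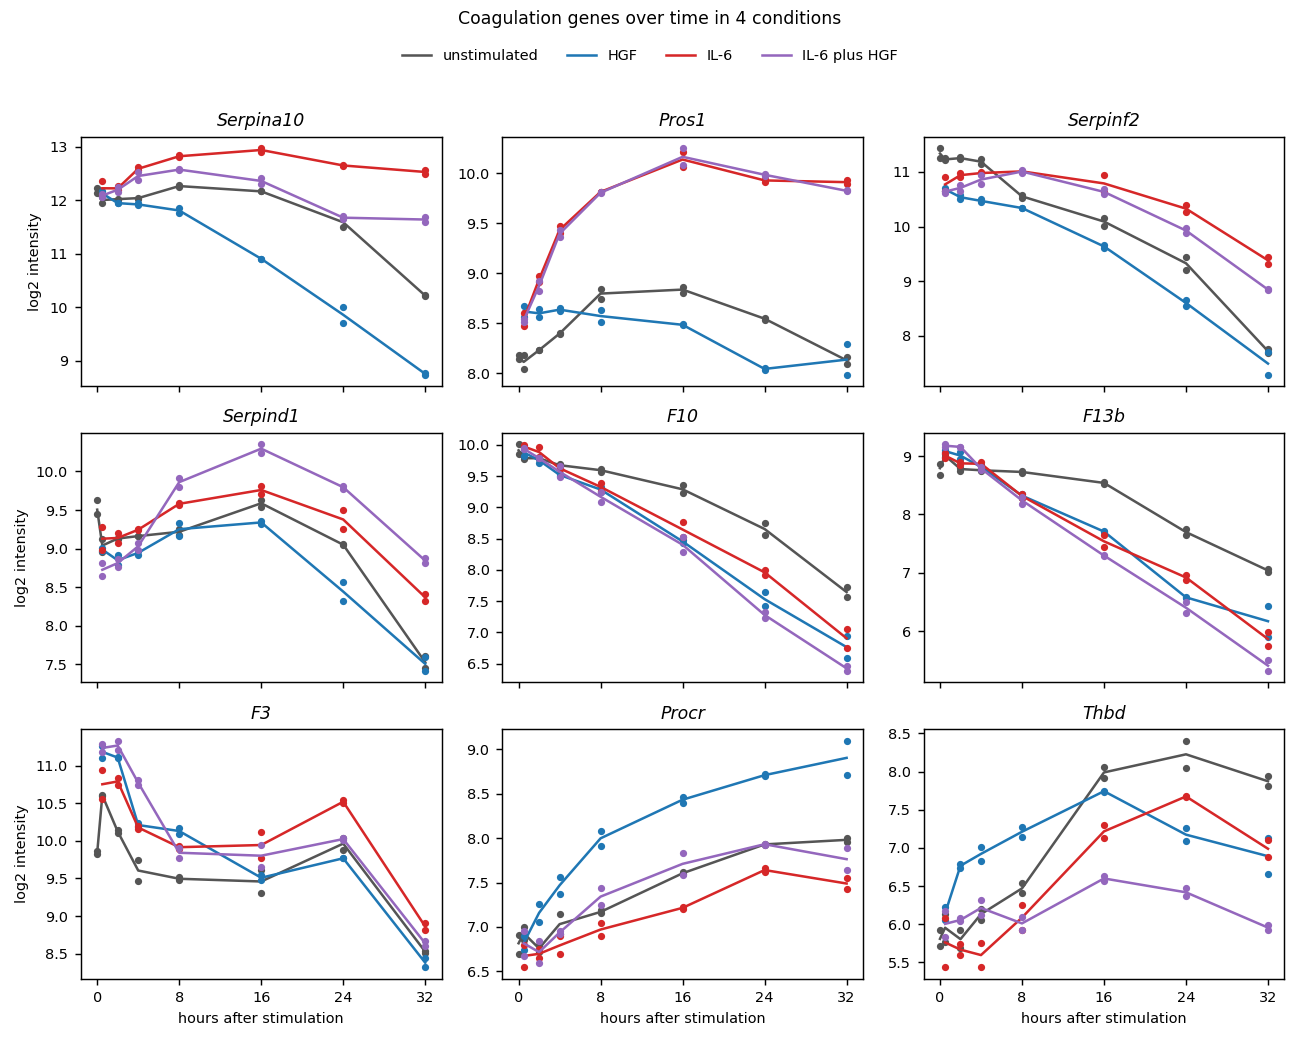
Log2 intensity (vertical axes, each gene on its own scale) of 9 members against hours after stimulation (horizontal axes); points are single arrays, lines join the means of 2 arrays (4 at 0 h), grey is unstimulated, blue HGF, red IL-6 and purple IL-6 plus HGF. Serpina10 ends near 8.77 and 8.74 with HGF and at 12.50 and 12.57 with IL-6 at 32 h, the red and purple lines of Pros1 run together, and the purple line of Thbd lies below the others from 16 h on.

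IL-6 split the set. The 7 genes that rose were Pros1, Serpina10, Serpinf2, Serpind1, F3, Kng1 and Mcfd2, and those that fell came from every role, from vitamin K-dependent factors to the serpin Serpinc1. Of 30 members 25 differed from unstimulated cells, 7 higher and 18 lower, against 55.1% of all genes tested (23.4% higher and 31.7% lower). Of these 5 differed at least 2-fold, where 2.6% of genes did. Over 8 to 32 h only, 22 members were called, against 42% of genes. Of the hepatocyte markers 5 were lower, 1 higher and 1 not called (median -0.50). The comparisons of HGF, IL-6 and both with unstimulated cells share the same unstimulated arrays.

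Pros1 rose first and stayed high. At 4 h its IL-6 arrays read 9.47 and 9.40 and both unstimulated arrays 8.40, and at 32 h they read 9.93 and 9.89 against 8.09 and 8.17. No IL-6 array from 2 h on overlapped its unstimulated pair, and the difference reached 1.78 (3.44-fold, SE 0.07, adjusted p = 5.88e-33). The other vitamin K-dependent factors did not follow it: F10 (-0.74), Proz (-0.60), F7 (-0.53), Proc (-0.36) and F2 (-0.33) were lower. F9 was not called (0.10 at 0.5 h, adjusted p = 0.323), and its IL-6 arrays at 24 h, both at 9.53, lay just above the unstimulated arrays at 9.39 and 9.50. Vkorc1 fell by 0.77 at 24 h and Ggcx by 0.45 at 32 h.

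F3 was 0.67 higher at 2 h (SE 0.09) and remained higher at each later hour, by 0.34 at 32 h. Tfpi2 fell by 0.72 at 16 h, and Tfpi was not called (0.20, adjusted p = 0.594). Among the cofactor genes, Mcfd2 rose by 0.17 and F8 fell by 0.45. F5 (0.19, adjusted p = 0.343) and Lman1 (0.18, adjusted p = 0.112) were not called.

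In the contact system Kng1 rose by 0.36 and F12 fell by 0.31, and F11 was not called (-0.25, adjusted p = 0.148). Klkb1 read 5.30 and 5.65 with IL-6 at 16 h and 6.62 and 6.28 without. The arrays did not overlap, and the difference was -0.97 (1.96-fold, SE 0.13, adjusted p = 3e-11). By 32 h it was 0.09. F13b read 5.98 and 5.74 at 32 h against 7.01 and 7.06, with both IL-6 arrays lower, a fall of 1.18 (2.26-fold, SE 0.09, adjusted p = 4.41e-18). Thbd fell by 0.88 and Procr by 0.49 at 32 h.

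The largest rise of all members with IL-6 was that of a serpin gene. Serpina10 was 2.31 higher at 32 h (4.97-fold, SE 0.06, adjusted p = 1.82e-31): its IL-6 arrays read 12.50 and 12.57, the unstimulated arrays 10.23 and 10.21, and the 0 h arrays 12.13 to 12.23. With IL-6, Serpina10 thus remained 0.36 above its 0 h level at 32 h, while it lost 1.95 without. Serpind1 was 0.84 higher at 32 h and Serpinc1 0.52 lower. Serpinf2 read 9.44 and 9.32 with IL-6 at 32 h and 7.75 and 7.68 without, a rise of 1.67 (3.17-fold, SE 0.09, adjusted p = 4.75e-22), although both were below the 0 h arrays. Plg fell by 0.53 and Hrg by 0.32, and the call of Hrg was lost without IL-6 16 h replicate 1. Habp2 read 6.31 and 6.41 at 2 h against 7.61 and 7.28 on unstimulated arrays (-1.09, SE 0.13) within the hours of the labelling difference, and its next probe set gave -0.59 (adjusted p = 0.00906).

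IL-6 was then set against HGF at the same hours, without the unstimulated arrays. Here all 7 vitamin K-dependent factors and all 4 fibrinolysis genes were higher with IL-6, and both protein C receptors were lower. In all 27 of 30 members differed, 20 higher and 7 lower, against 51.2% of all genes tested (22.3% higher and 28.9% lower). At 24 h alone 18 were higher and 2 lower, against 17.1% and 15.9% of genes, and the median member stood at 0.34 and the median gene at -0.02.

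The largest difference was that of Serpina10 at 32 h, where the IL-6 arrays of 12.50 and 12.57 stood far above the HGF arrays of 8.77 and 8.74. It came to 3.78 (13.7-fold, SE 0.06, adjusted p = 7.38e-43). Serpinf2, at 9.44 and 9.32 against 7.69 and 7.28, was 1.89 higher (SE 0.09), and Pros1 at 24 h, at 9.91 and 9.95 against 8.04 and 8.05, was 1.88 higher (SE 0.07). None of these pairs overlapped. Smaller rises were those of Serpind1 (0.93), Proz (0.86), F9 (0.83), Kng1 (0.76), F3 (0.75) and F7 (0.58). F10 (0.43), F12 (0.38), Plg (0.36), F13b (0.34), Proc (0.29) and F2 (0.21) differed by less. These are values at the largest hour, and the order was not the same at all hours. F13b was 0.31 lower with IL-6 at 32 h (adjusted p = 0.00949 at that hour). F3 was 0.43 lower at 0.5 h (adjusted p = 0.0132 at that hour) and 0.32 lower at 2 h (adjusted p = 0.0225 at that hour).

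Procr was 1.41 lower with IL-6 than with HGF at 32 h (2.67-fold, SE 0.11), with 7.56 and 7.42 against 9.10 and 8.71. Thbd was 1.33 lower at 4 h (SE 0.15), with 5.44 and 5.76 against 7.01 and 6.83, and Tfpi2, an inhibitor of plasmin and other proteases, 0.77 lower at 16 h (SE 0.10), with 7.93 and 8.24 against 8.82 and 8.89. In each case both IL-6 arrays were below both HGF arrays. For Thbd the order had turned by 24 h, when IL-6 arrays were 0.50 higher (adjusted p = 0.00792 at that hour). Of the endothelial markers 8 of 10 were higher with IL-6 and 2 were not called, and their part was not tested. The call of Serpinc1 (-0.25, adjusted p = 0.0494) was lost when any of 19 single arrays was left out, and that of Mcfd2 (-0.13, adjusted p = 0.0347) when any of 8 was. That of Hrg (0.53, adjusted p = 0.0315) was lost without IL-6 24 h replicate 1 or 2 or HGF 24 h replicate 2.

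**Figure D3:**
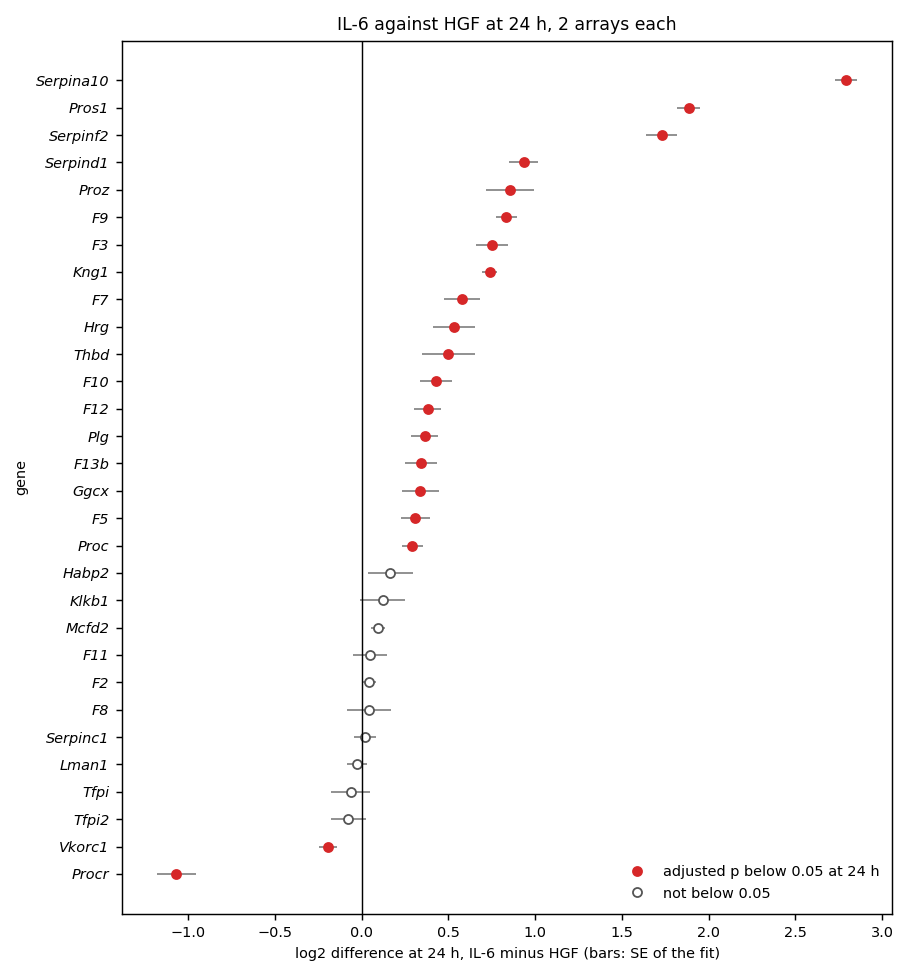
Log2 difference between IL-6 and HGF at 24 h (horizontal axis) for the 30 measured members (vertical axis), 2 arrays against 2; bars are the standard error of the fit and filled points passed an adjusted p of 0.05 at that hour. Of the filled points 18 lie to the right of 0, led by Serpina10 at 2.79, and 2 to the left, Vkorc1 and Procr at -1.07.

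Cells given both stimuli showed rises of Pros1 (1.69 at 32 h, and 1.78 with IL-6 alone), Serpina10 (1.42, and 2.31 with IL-6 alone) and Serpinf2 (1.13, and 1.67 with IL-6 alone), showed rises of Serpind1, F11 and F5, and lost more of Thbd and F13b than with either stimulus. Against unstimulated cells 27 of 30 members differed, 9 higher and 18 lower, where 68% of all genes did (31.3% higher and 36.7% lower), and 9 members differed at least 2-fold, where 5.77% of genes did. Over 8 to 32 h only, 27 were called, against 57.2% of genes. Of the 7 hepatocyte markers 6 were lower and 1 higher (median -1.15), and their part was not tested.

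Pros1 read 9.83 and 9.82 at 32 h with both stimuli, 1.69 above the unstimulated arrays (3.24-fold, SE 0.07). Serpina10 read 11.60 and 11.69, which is 1.42 above (2.68-fold, SE 0.06), and Serpind1 read 8.88 and 8.81 against 7.61 and 7.45, which is 1.32 above (2.49-fold, SE 0.08). All 3 pairs stood clear of the unstimulated pairs. Serpinf2 was 1.13 higher at 32 h and F3 1.17 higher at 4 h. F11 was 0.91 higher at 16 h and F5 0.80 higher at 24 h, and neither had risen by as much with 1 stimulus, at 0.35 and -0.12 with HGF and -0.02 and 0.19 with IL-6 at the same hours.

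Thbd read 5.99 and 5.92 at 32 h against 7.94 and 7.80 on unstimulated arrays, a fall of 1.92 (3.77-fold, SE 0.15, adjusted p = 6.21e-19). At that hour its level stood 0.15 above that of 0 h, so that the rise seen in culture was nearly missing. F13b read 5.50 and 5.31 at 32 h against 7.01 and 7.06, which is 1.63 lower (3.10-fold, SE 0.09), and F10 read 7.33 and 7.23 at 24 h against 8.56 and 8.75, which is 1.38 lower (2.60-fold, SE 0.09). In each the groups were apart. F10 by its next probe set was 1.04 lower. Procr (-0.22, adjusted p = 0.331), Kng1 (0.11, adjusted p = 0.124) and Tfpi (0.09, adjusted p = 0.98) were not called.

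Against HGF alone, 20 of 30 members differed, 11 higher and 9 lower (41.6% of all genes, 17.7% higher and 23.9% lower). The largest rises were those of Serpina10 (2.89 at 32 h, SE 0.06, 11.60 and 11.69 against 8.77 and 8.74), Pros1 (1.94 at 24 h, SE 0.07, 9.97 and 10.00 against 8.04 and 8.05) and Serpinf2 (1.36 at 32 h, SE 0.09, 8.84 and 8.85 against 7.69 and 7.28). The falls were led by Thbd at 8 h (-1.20, SE 0.15), with 5.93 and 6.09 against 7.15 and 7.28. Procr at 32 h (-1.14, SE 0.11), with 7.89 and 7.64 against 9.10 and 8.71, and F13b at 32 h (-0.76, SE 0.09), with 5.50 and 5.31 against 6.43 and 5.90, came next. None of these pairs overlapped, although F13b was only 0.50 lower without HGF 32 h replicate 1. The call of F10 (-0.34) was lost without HGF 24 h replicate 1, HGF 32 h replicate 1 or replicate 2 of the combination at 24 or 32 h, and that of Tfpi2 (-0.35) without replicate 1 of the combination at 8 h.

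Against IL-6 alone, 23 of 30 members differed, 7 higher and 16 lower (44.1% of all genes, 23.2% higher and 20.9% lower). F11 was 0.93 higher at 16 h (SE 0.10), with 8.47 and 8.58 against 7.65 and 7.53. F5, factor V, was 0.63 higher at 32 h (SE 0.08), with 8.84 and 9.02 against 8.34 and 8.26, and 0.39 higher by its next probe set. F3 was 0.60 higher at 4 h (SE 0.09), with 10.74 and 10.80 against 10.20 and 10.15. The combination lay above IL-6 on every array of these 3 pairs. Thbd was 1.26 lower at 24 h (SE 0.15, 6.47 and 6.37 against 7.68 and 7.67), Serpina10 0.98 lower (SE 0.06, 11.71 and 11.65 against 12.67 and 12.64) and F10 0.68 lower (SE 0.09, 7.33 and 7.23 against 7.92 and 8.00). All 3 pairs were again apart. Pros1 was not called (-0.09 at 32 h, adjusted p = 0.816), and this was its largest difference at any hour. The call of Ggcx was lost when any of 9 single arrays was left out and that of Serpinc1 when any of 4 was. Those of Proz and Mcfd2 were each lost with any of 2 arrays left out, and that of Proc without IL-6 32 h replicate 1.

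The interaction asks whether the effect of IL-6 differed with and without HGF. It is the combination minus HGF, minus the quantity IL-6 minus unstimulated, at the same hour. Here 24 of 30 members passed, 21 with a value above 0 and 3 below, against 33.6% of all genes tested (18.9% above and 14.6% below). The sign is that of the largest hour. For F2, F12, Serpinf2 and Habp2 this hour came before 8 h, within the labelling difference. Pros1 changed sign, from -0.51 at 0.5 h to 0.56 at 24 h. At 24 h 25 members lay above 0, as did 48.2% of all genes, and 12 of the 25 did so with an adjusted p under the threshold of 0.05 at that hour, where 4.82% of genes did. The unstimulated arrays enter this contrast with a plus sign and each effect against unstimulated cells with a minus sign, and at 8 to 32 h they carried the higher bioB signal. The part of the bioB and labelling differences in the count was not tested.

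The contact system held the largest interactions at 24 h. Klkb1 read 6.13 and 6.34 unstimulated, 5.40 and 4.97 with HGF, 5.36 and 5.25 with IL-6 and 5.35 and 5.38 with both. All stimulated arrays lay below the unstimulated ones and their 3 groups lay close together, which gives an interaction of 1.10 (SE 0.18, adjusted p = 9.61e-07). F11 read 7.71 and 7.89 unstimulated, 7.61 and 7.70 with HGF, 7.67 and 7.73 with IL-6, and 8.63 on both arrays of the combination. Here only the combination was high, and the interaction was 1.07 (SE 0.13, adjusted p = 1.16e-08). Serpind1 (1.03), Serpina10 (0.75), Proz (0.75), F5 (0.73) and F13b (0.60) had their largest values at 24 h too. F11, F5 and Serpind1 also stood above both single stimuli in the contrasts without unstimulated arrays.

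Habp2 had the largest value, 1.14 at 2 h (SE 0.18), from 7.61 and 7.28 unstimulated, 6.41 and 6.34 with HGF, 6.31 and 6.41 with IL-6 and 6.48 and 6.38 with both. The 3 stimulated groups overlapped and only the unstimulated arrays stood apart, in the hours of the labelling difference, and the next probe set gave 0.65 (adjusted p = 0.081). Below 0 were Thbd at 8 h (-0.82, SE 0.21, adjusted p = 0.0108), F3 at 8 h (-0.71, SE 0.13, adjusted p = 7.39e-05) and Procr at 32 h (-0.65, SE 0.16, adjusted p = 8.04e-05). At these single hours the adjusted p was 0.0248 for Thbd, 0.000928 for F3 and 0.0065 for Procr. For F3 the arrays at 8 h read 9.47 and 9.52 unstimulated, 10.17 and 10.09 with HGF, 9.93 and 9.90 with IL-6 and 9.78 and 9.91 with both, so that the combination was below HGF alone. Thbd at 8 h read 6.40 and 6.54, 7.15 and 7.28, 6.25 and 5.92, and 5.93 and 6.09 in the same order. Only the HGF arrays were high. Procr at 32 h read 8.01 and 7.96, 9.10 and 8.71, 7.56 and 7.42, and 7.89 and 7.64. Again HGF alone was high and the combination was not. At 8 h alone the Thbd call was lost without unstimulated replicate 1, either HGF array, IL-6 replicate 1 or combination replicate 1 (-0.65 to -0.88). At 32 h alone that of Procr was lost without HGF replicate 1 (-0.46) or combination replicate 2 (-0.53). Over all hours the call of Kng1 (0.18) was lost when any of 25 single arrays was left out, that of Plg (0.37) when any of 15 was, and that of Serpinc1 (0.31) when any of 4 was.

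**Figure D4:**
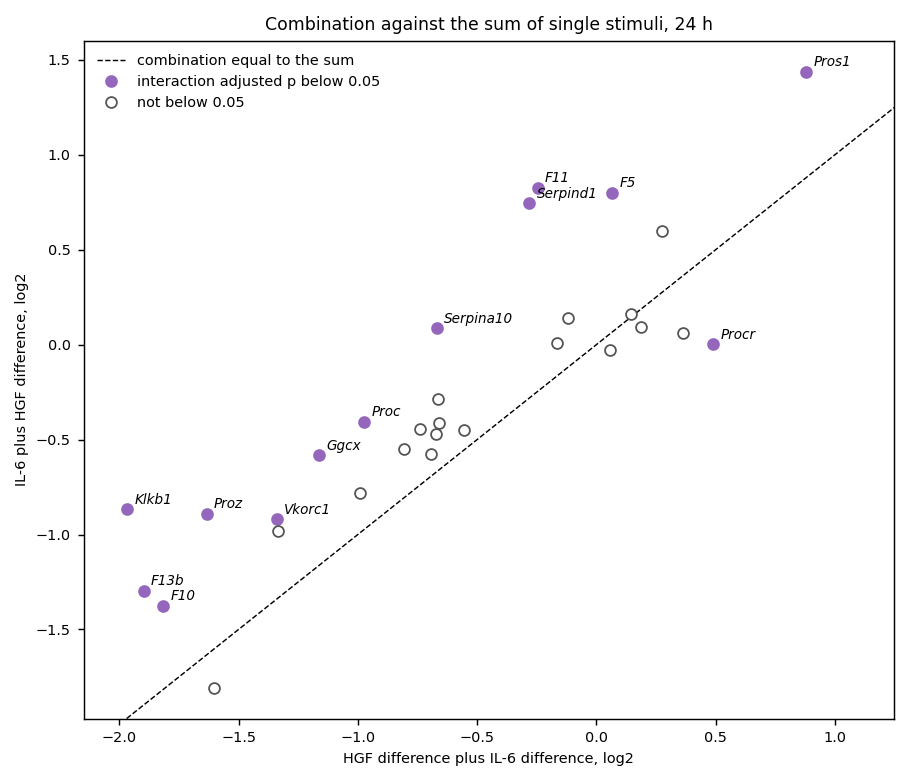
Log2 difference of IL-6 plus HGF from unstimulated cells at 24 h (vertical axis) against the sum of the differences of HGF and IL-6 given alone (horizontal axis), 1 point for each of the 30 measured members. The dashed line marks a combination equal to the sum; 25 members lie above it, and filled, named points are the 13 with an adjusted interaction p under 0.05, of which Procr lies below it.

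Other genes of the pathway were taken from a list of 34, of which 27 had a probe set of their own name and 23 were tested. With HGF 7 rose, 13 fell and 3 were not called, and the median at the largest hour was -0.16 (-0.08 over all genes). The fibrinogen chains fell, Fga by 1.36 and Fgg by 0.99 at 24 h, while the plasminogen activator Plat rose by 1.62 and thrombospondin Thbs1 by 1.57 at 8 h. The plasminogen activator inhibitor Serpinb2 rose by 1.38 at 8 h and the urokinase receptor Plaur by 0.61 at 16 h. Serpinb2 read low, with a mean of 3.67 over all arrays (2.24 to 5.24), where the intensity filter lay at 4.28 to 4.40. With IL-6 11 rose, 9 fell and 3 were not called (median 0.11, and -0.10 over all genes). Fga was 4.60, Fgg 4.10 and Fgb 2.16 higher at 32 h, and Serping1, the inhibitor of complement and kallikrein, 1.16 higher. With both stimuli 9 rose, 11 fell and 3 were not called. Fga was then 4.23 higher, and Gas6, a vitamin K-dependent relative of protein S, 0.85 lower at 8 h. With HGF alone Gas6 was 1.05 lower at 16 h, and with IL-6 alone 0.44 higher at 32 h. Each of these Gas6 values is from the largest hour of its own comparison.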

How the data were processed

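RNA of 60 cultures was labelled with biotin (One-Cycle protocol) and hybridised to Affymetrix mouse arrays, per the labels' protocols. The authors deposited log2 intensities of 45101 probe sets. The summary method and scaling are not given in the sources used here, and array medians lay between 4.88 and 4.97, so no further scaling was done. Triplicates are named in the series text, while the table holds 2 arrays per later group, none identical to another.

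Each gene was read from its probe set with 1 symbol and the highest mean; 34958 probe sets carry 1 symbol, 932 several and 9211 none. Probe sets of Procr, Serpina10, Hrg, Habp2, Lman1 and Tfpi are of kinds that can match related transcripts. Genes under the 40th percentile of the array on all but 1 array or on every array were left out (14513 of 18194 genes were tested).

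A limma 3.58.1 fit in R 4.3.3 held 1 mean per group over all arrays, with 31 residual degrees of freedom and eBayes variances that follow the mean level. Comparisons used the moderated F-test of 7 hourly contrasts, adjusted by Benjamini-Hochberg over all genes tested at 0.05. Higher and lower refer to the hour of the largest difference. P-values of 1 hour were adjusted over the genes at that hour. The fit was tested on simulated data. Per-array values are given for the 3 largest rises and falls among called members in each of 8 comparisons, and other members are given by their differences. Since these members and hours were picked by size, statements that their arrays did not overlap describe the values and are no further test. Members, lists and alternatives were chosen with earlier results of these data known. Alternatives were quantile normalization, other filters, other probe sets, only the compared conditions, a replicate block, other variance models, only 8 to 32 h, a 2-fold minimum and leaving out each array.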

Additional observations from a re-analysis of the deposited data

Results flagged for a closer look

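At 0 h, where 4 arrays allow such a check, 1 array stood apart for 2 of 30 members, and chance gives this in about 1 of 20 groups. For F11 the highest array read 8.41 and the next 8.16, a gap of 0.916 of the range. For Lman1 the lowest read 9.93 and the next 10.02, a gap of 0.855. Both exceed the critical value of Dixon's test.

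The interaction term compares the effect of IL-6 with and without HGF. Among the members called above 0, the 3 largest values were those of Habp2 at 2 h (1.14), Klkb1 at 24 h (1.10) and F11 at 24 h (1.07). The members called below 0 were Thbd at 8 h (-0.82), F3 at 8 h (-0.71) and Procr at 32 h (-0.65). All of these values fall at hours when bioB was higher on the unstimulated than on the stimulated arrays. The Habp2 value also falls in the hours of the labelling difference of the unstimulated arrays. The part of these differences was not tested.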

How the results depend on the processing

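A 2-fold minimum left 7 members for HGF, 5 for IL-6 and 9 for both stimuli against unstimulated cells, and 5 for IL-6 against HGF. It left 6 and 1 for the combination against HGF and against IL-6, 4 for the interaction and 19 for culture time. The shares of all genes tested were 3.58%, 2.6%, 5.77%, 2.83%, 1.83%, 1.1%, 1.15% and 12.9% in the same order. All other settings kept each count within 1.5 times. Leaving out each array in turn gave 26 to 28, 25 to 26, 27 to 28, 25 to 27, 19 to 22, 21 to 24, 22 to 26 and 29 to 29 members in the same order, and the remaining settings other than the 2-fold minimum gave 26 to 28, 22 to 26, 26 to 27, 24 to 27, 20 to 22, 21 to 24, 21 to 25 and 27 to 29. With the replicate number as a block the counts were 28, 25, 27, 26, 21, 24, 24 and 29. The residuals of arrays with the same number had correlations of -0.27 to 0.25 over 406 pairs of groups, so the numbers were not taken to pair the arrays. Of 613 alternative values of the 48 named differences, 603 kept their direction and their side of the threshold, 10 lost the call and 0 reversed. The lost ones were Thbd in the interaction at 8 h, without a variance trend (-0.82, adjusted p = 0.0536) and without any of 5 arrays (-0.65 to -0.88), Procr in the interaction at 32 h without HGF replicate 1 (-0.46, adjusted p = 0.102) or combination replicate 2 (-0.53, adjusted p = 0.0706), and Habp2 by its next probe set. The cause was not tested. With 2 arrays a group, small differences may go undetected.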
